A study of Mus musculus with 12 samples.

Results

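The 8 genes of the suppressor of cytokine signalling (SOCS) family, Socs1 to Socs7 and Cish, and the kinase genes Pim1 and Pim3 were followed in Min6, a mouse insulinoma line that makes and secretes insulin. They were taken by symbol from the counts of 12 libraries, all 10 symbols were among the 24421 counted, and all 10 passed the filter on low counts, which 13102 genes did. Of the 12 libraries, 6 came from cells infected with an adenovirus carrying a hairpin against Il22ra1 (sh-Il22ra1) and 6 from cells infected with a control adenovirus (sh-ctrl, titled GFP). Every culture, in both groups, was labelled WT in genotype, was infected for 48 h, and received 0.3 mM palmitate for 24 h, so no library without virus or without palmitate entered the comparison. For sh-Il22ra1 replicates 2 to 6 the treatment labels carry the gene name with its last number counted upward, and these libraries were kept in the group that their titles give. All come from 1 line, and no label tells if the 6 wells or dishes behind a group were independent; the p-values below therefore reflect sample-to-sample spread alone, part or all of it possibly technical.

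SOCS proteins are the feedback brakes of cytokine receptors. Cytokines of the interleukin-6, interleukin-10 and interferon families, interleukin-22 among them, activate JAK kinases and STAT transcription factors, STATs induce SOCS genes, and the SOCS proteins then bind the receptor or the kinase through an SH2 domain and recruit a ubiquitin ligase through the SOCS box. SOCS1 and SOCS3 also block JAK kinases directly with a short inhibitory region, whereas CISH and SOCS2 act mainly on receptors that use STAT5, those for growth hormone and prolactin among them. PIM kinases are serine/threonine kinases that STAT3 and STAT5 induce; they are active as soon as they are made, and their amount is set mostly by the synthesis and decay of their mRNA and protein. In beta cells SOCS proteins are known as brakes on growth hormone, prolactin, insulin and interferon signals.

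STAT dimers bind the palindrome TTCNNNGAA, and TTCNNNNGAA is a variant with a wider spacer; both read the same on either strand, a match to each cannot begin at the same base, and both were searched in the start regions of the members. RefSeq windows of 300 bases, 250 before the start of the gene and 50 from it (GRCm38.p6), were at hand for 6 members in 7 windows: Socs1, Socs3, Socs4, Cish, Pim3 and, with 2 starts, Pim1. Socs2, Socs5, Socs6 and Socs7 had no window. Of the 7 windows 2 held a match, those of Cish (chr9:107296409-107296708, plus strand) and Socs3 (chr11:117969317-117969616, minus strand), while 14.6% of all 32851 windows of this length held at least 1. The Cish window held 2 matches, at bases 251 to 259 and 262 to 270 with base 251 being the first of the gene, and 1.39% of all windows held 2 or more. The Socs3 window held 1, at bases 97 to 105. Both windows lie within the GENCODE M21 spans of their genes (Cish at chr9:107296026-107302784, plus strand), downstream of the outermost GENCODE starts. A span covers all transcripts of a gene, and the starts of single GENCODE transcripts were not looked up. Whether a match lies before or after the start of a given transcript is therefore not known. Base 251 is the first of the gene by RefSeq. A match describes the letters of the window and does not show that a factor binds there, and the absence of 1 says only that these letters are not in the window. The windows of Cish, Socs3 and the upstream start of Pim1 (chr17:29490535-29490834, plus strand) are shown 5′ to 3′ with the matches in capitals, because these are the member with paired matches, the member with 1 match that fell, and the member with the largest rise.

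Cish: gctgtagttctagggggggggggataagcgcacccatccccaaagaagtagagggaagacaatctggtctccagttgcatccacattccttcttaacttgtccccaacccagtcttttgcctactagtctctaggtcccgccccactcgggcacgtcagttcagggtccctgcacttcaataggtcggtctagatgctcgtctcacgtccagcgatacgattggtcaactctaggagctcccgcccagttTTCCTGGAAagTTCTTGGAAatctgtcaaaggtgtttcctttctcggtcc

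Socs3: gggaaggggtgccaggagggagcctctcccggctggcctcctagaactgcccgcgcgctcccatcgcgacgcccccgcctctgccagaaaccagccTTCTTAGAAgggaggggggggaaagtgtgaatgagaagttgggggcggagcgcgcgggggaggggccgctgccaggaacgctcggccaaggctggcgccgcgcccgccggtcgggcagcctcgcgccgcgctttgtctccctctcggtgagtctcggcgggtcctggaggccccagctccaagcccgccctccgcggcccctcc

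Pim1: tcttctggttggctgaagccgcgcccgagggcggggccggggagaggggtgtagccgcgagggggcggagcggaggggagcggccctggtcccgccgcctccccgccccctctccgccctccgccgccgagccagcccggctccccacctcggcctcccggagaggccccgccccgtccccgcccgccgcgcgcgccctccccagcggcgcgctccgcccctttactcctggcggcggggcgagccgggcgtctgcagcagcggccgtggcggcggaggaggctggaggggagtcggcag

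Reads in genes numbered 13108494 to 15887448 per library, which sets the precision: a library held 17 to 48 reads of Socs1, the scarcest member, and 849 to 1717 of Socs7. Levels are in CPM, that is, counts per 1000000 reads in genes with TMM factors applied. Il22ra1, the targeted gene, had 15 reads over the sh-Il22ra1 libraries and 74 over the sh-ctrl libraries, and its groups did not overlap (ratio 0.197, 95% Poisson interval 0.105 to 0.346 for counting error only; two-sided exact permutation p = 0.00216, the smallest that 6 against 6 allow). All 15 beta cell markers had reads, with Ins2 at a mean of 42876 CPM in sh-Il22ra1 and 49586 CPM in sh-ctrl. Of the 15, 3 rose, 7 fell and 5 did not pass, at a median log2 fold change of -0.23. Over all tested genes, 25.4% were called higher and 26.5% lower, a share to set beside each marker count here. The markers that rose were Ucn3 (log2 fold change 0.41), Neurod1 (0.37) and Slc30a8 (0.24). The largest falls, picked after their values were seen, were those of Mafa (227 CPM in sh-Il22ra1 and 556 CPM in sh-ctrl, log2 fold change -1.29), Slc2a2 (-0.93) and Iapp (-0.63), whose groups did not overlap. On the second principal component the sh-ctrl libraries were spread widely, with replicates 1 (18.2) and 4 (31.9) at one end. Replicates 2 (-17.7) and 6 (-16.2) were at the other end, and the sh-Il22ra1 libraries ran from -9.30 to 6.27. Fits without sh-ctrl replicates 1 and 4 together are given below. They keep the other end of this spread, and no fit left out replicates 2 and 6 together. Other measures moved with the groups: reads without an alignment took 8.71% to 11.8% of sh-Il22ra1 files and 12.8% to 17.3% of sh-ctrl files. Of 9 leukocyte markers, summed at 5.97 to 9.90 CPM in sh-Il22ra1 and 18.7 to 27.5 CPM in sh-ctrl, 2 were tested and 1 fell; Cd68 made most of the sum, and Ptprc averaged 0.0902 CPM in sh-Il22ra1 and 0.0358 CPM in sh-ctrl. Of 8 fibroblast markers, 3 were tested and 3 fell, with sums of 1.82 to 3.09 CPM in sh-Il22ra1 and 4.64 to 9.32 CPM in sh-ctrl. Sums of 7 endothelial markers were 36.2 to 40.6 CPM against 26.6 to 35.3 CPM, mostly Esam. Those of 12 acinar and ductal markers were 2.12 to 2.9 CPM against 2.14 to 4.14 CPM, with Prss1, Amy2a5 and Ptf1a at 0, and those of 8 other islet hormone markers 146 to 159 CPM against 245 to 296 CPM, mostly Gcg, with Hhex at 0. The part of these measures in the members' changes was not tested. In bulk RNA, fewer cells with a transcript and less of it per cell cannot be told apart.

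Of the 10 members 6 changed: Pim1, Socs7, Socs6 and Pim3 were higher and Socs2 and Socs3 lower in sh-Il22ra1. The same edgeR quasi-likelihood test with Benjamini-Hochberg adjustment called 51.9% of the 13102 genes tested, 25.4% higher and 26.5% lower, so a count of 6 of 10 was near the background share and is no result about the family. The median log2 fold change of the members was 0.14, against -0.0043 for all tested genes. In 4 members, Pim1, Socs7, Socs2 and Socs3, the groups did not overlap, as in 28.1% of tested genes. The members differed in direction and in size. Socs2 had a larger change than 90.1% of tested genes, Pim1 than 82.3% and Socs7 than 73.5%, whereas Socs3 (46.9%), Socs6 (40.8%) and Pim3 (36.6%) were below the middle of the range.

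**Figure D1:**
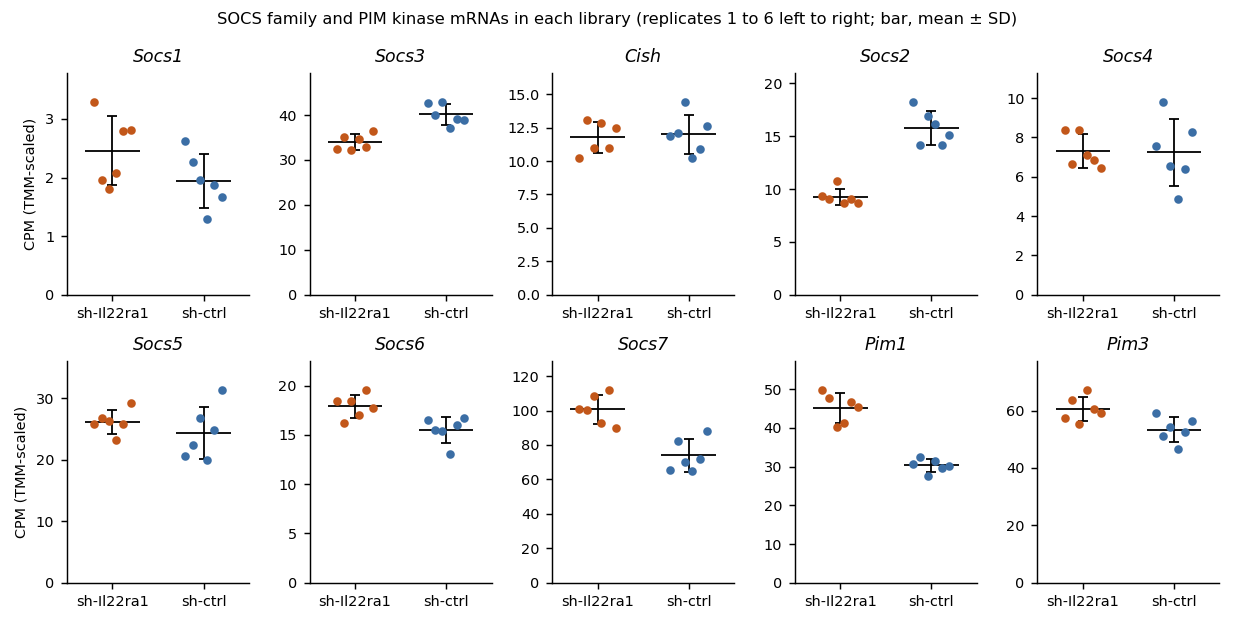
CPM of each of the 10 members in every library, sh-Il22ra1 (orange, left) and sh-ctrl (blue, right), replicates 1 to 6 from left to right within a group, with the mean and SD; every axis starts at 0. The groups separate for Socs3, Socs2, Socs7 and Pim1 and overlap for the other members.

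Among the cytokine-induced members, Socs2 showed the largest difference. Socs2, whose protein restrains growth hormone signalling, was at 8.64, 9.07 and 10.8 CPM (lowest, median and highest library) in sh-Il22ra1, against 14.2, 15.6 and 18.2 CPM in sh-ctrl. All 6 sh-Il22ra1 libraries lay below all 6 sh-ctrl libraries, with a gap wider than the range of the sh-Il22ra1 group. Its log2 fold change was -0.76 (SE 0.0923, adjusted p = 1.78e-06, edgeR quasi-likelihood test), which leaves 58.9% of the sh-ctrl level. On GRCm38 it occupies chr10:95385362-95417180, minus strand, and its exons overlap no other annotated gene.

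Socs3, the brake on gp130 receptors and the best known target of STAT3, fell less. It was at 32.3, 33.7 and 36.6 CPM in sh-Il22ra1, against 37.2, 39.5 and 42.9 CPM in sh-ctrl. The highest sh-Il22ra1 library, replicate 6, lay just under the lowest sh-ctrl library, replicate 4. This was a log2 fold change of -0.24 (SE 0.0625, adjusted p = 0.00353, edgeR), a level 84.7% of that in sh-ctrl. With a correction for transcript length and GC content, the log2 fold change of Socs3 was -0.15 (SE 0.0587, adjusted p = 0.0348, edgeR). Its spread between libraries of a group, a CV of 5.06% in sh-Il22ra1 and 5.66% in sh-ctrl, was close to the 4.43% and 4.13% that counting alone gives. The gene occupies chr11:117966079-117970047, minus strand, by GENCODE. Its RefSeq window with the single palindrome, shown above, lies within this span, which covers all transcripts of the gene.

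Cish, whose protein binds receptors that signal through STAT5, was at 10.2, 11.7 and 13.1 CPM in sh-Il22ra1, against 10.2, 12.0 and 14.4 CPM in sh-ctrl. The groups covered nearly the same range. The log2 fold change of -0.03 (SE 0.0996, adjusted p = 0.808, edgeR) had a 95% interval of -0.25 to 0.19. Changes as large as those of Socs2, Pim1 and Socs7 lie outside it, while a fall of the size seen for Socs3 lies within it. Of its exon bases 11.5% lie on the opposite strand of predicted genes, and as the strand setting of the counting is not given, reads there cannot be told apart.

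Socs1, the brake on interferon signalling that inhibits JAK kinases directly, was the scarcest member. It was at 1.80, 2.44 and 3.29 CPM in sh-Il22ra1, against 1.30, 1.91 and 2.62 CPM in sh-ctrl. Of the sh-Il22ra1 libraries 3 lay above every sh-ctrl library and 5 above the sh-ctrl mean, and the rest overlapped. Its log2 fold change of 0.34 had an SE of 0.199 and did not pass (adjusted p = 0.167, edgeR; 95% interval -0.11 to 0.78). Its CV between libraries was 24.0% in sh-Il22ra1 and 23.6% in sh-ctrl, where counting alone gives 16.5% and 18.8%.

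The SOCS proteins with a long N-terminal part are less tied to cytokines. Socs7, which acts on insulin receptor substrates and on STAT3 and moves between nucleus and cytoplasm, had the most reads of the 10. It was at 89.9, 101 and 112 CPM in sh-Il22ra1, against 65.2, 71.2 and 88.0 CPM in sh-ctrl. The groups did not overlap, but the highest sh-ctrl library, replicate 6, came within 2 CPM of the lowest sh-Il22ra1 library. Its log2 fold change was 0.45 (SE 0.0798, adjusted p = 0.000144, edgeR), a rise of 1.36-fold. The lowest sh-ctrl values were those of replicates 1 (65.3 CPM) and 4 (65.2 CPM), and the highest those of replicates 2 (82.5 CPM) and 6 (88.0 CPM). Without replicates 1 and 4 the log2 fold change of Socs7 was 0.35 (adjusted p = 9.39e-05, edgeR). It was 0.48 without replicate 2 and 0.50 without replicate 6. With the length and GC correction it was 0.68 (SE 0.0525).

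Socs6, an adaptor that targets the KIT receptor and insulin receptor substrates, was at 16.2, 18.1 and 19.5 CPM in sh-Il22ra1, against 13.1, 15.8 and 16.7 CPM in sh-ctrl. Of the sh-Il22ra1 libraries 5 lay above every sh-ctrl library. The log2 fold change of 0.20 (SE 0.0810) passed by a narrow margin (adjusted p = 0.0420, edgeR). The call ended under 12 of 23 alternatives, among them leaving out sh-ctrl replicate 2, 3, 4 or 5 or sh-Il22ra1 replicate 1, 3, 5 or 6, with values from 0.15 to 0.38 over all alternatives and the lowest without sh-ctrl replicate 4, its lowest library, and the highest with the length and GC correction.

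Socs5, which acts on the EGF receptor and on JAK1, was at 23.2, 26.1 and 29.3 CPM in sh-Il22ra1, against 19.9, 23.6 and 31.3 CPM in sh-ctrl. The sh-ctrl group enclosed the sh-Il22ra1 group, and its CV of 17.6% was above the 5.28% from counting. The log2 fold change of 0.10 did not pass (SE 0.10, adjusted p = 0.407, edgeR; 95% interval -0.12 to 0.33); with the length and GC correction it was 0.19 (adjusted p = 0.0497, edgeR), and without sh-ctrl replicates 1 and 4 it was -0.03. Socs4, its closest relative, was at 6.45, 6.96 and 8.37 CPM in sh-Il22ra1, against 4.89, 7.03 and 9.79 CPM in sh-ctrl. Its log2 fold change was 0.01 (SE 0.142, adjusted p = 0.978, edgeR), and the 95% interval of -0.31 to 0.32 holds changes as large as that of Socs3. For both genes the lowest sh-ctrl library was replicate 4.

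The kinase gene Pim1 had the largest rise. It was at 40.1, 46.0 and 49.8 CPM in sh-Il22ra1, against 27.7, 30.5 and 32.6 CPM in sh-ctrl. Every sh-Il22ra1 library lay above every sh-ctrl library. A log2 fold change of 0.57 was fitted (SE 0.0692, adjusted p = 1.84e-06, edgeR quasi-likelihood test), a rise of 1.49-fold. Pim1 occupies chr17:29490753-29496112, plus strand, and 14.5% of its exon bases lie opposite the predicted gene Gm26885, whose reads could be counted with it if strand was not used.

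Pim3, known in mouse islets as a brake on insulin secretion, was at 55.3, 59.8 and 67.1 CPM in sh-Il22ra1, against 46.6, 53.5 and 59.2 CPM in sh-ctrl. All 6 sh-Il22ra1 libraries lay above the sh-ctrl median, 3 of them above every sh-ctrl library. The log2 fold change of 0.18 (SE 0.0679) passed narrowly (adjusted p = 0.0323, edgeR). The call ended without sh-ctrl replicate 2, 4 or 5 or without sh-Il22ra1 replicate 2, 4, 5 or 6, with a lowest value of 0.13 without sh-ctrl replicate 4. With the length and GC correction it was 0.32. Pim2, the third PIM kinase gene and not one of the 10, was at 84.6, 87.6 and 91.4 CPM in sh-Il22ra1, against 59.9, 63.2 and 67.4 CPM in sh-ctrl, groups that did not overlap (log2 fold change 0.47, SE 0.0531, adjusted p = 8.78e-07, edgeR). All 3 PIM genes were called higher, as were 25.4% of tested genes, and Pim3 lost its call under 8 of 23 alternatives.

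**Figure D2:**
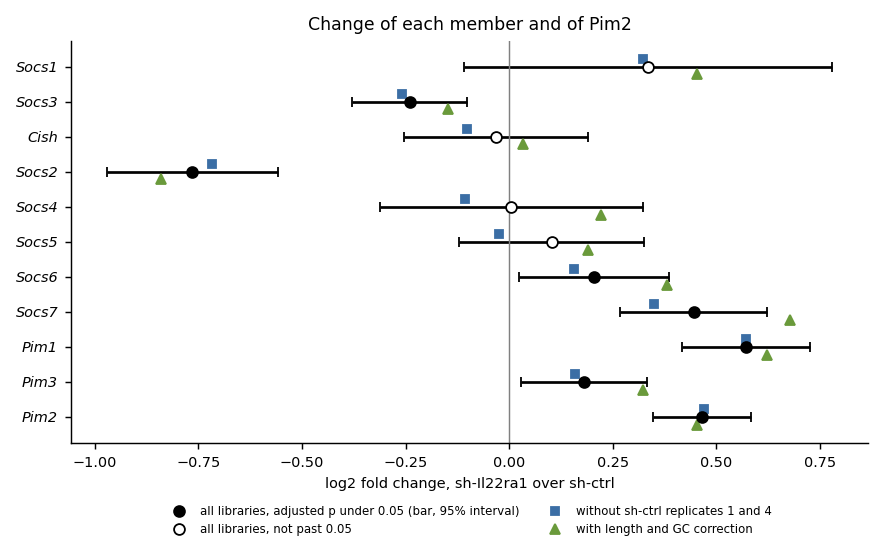
Log2 fold change (sh-Il22ra1 over sh-ctrl) of each member and of Pim2 with its 95% interval, filled where adjusted p was under 0.05 by edgeR, beside the value without sh-ctrl replicates 1 and 4 (squares) and with the length and GC correction (triangles). Socs2 at -0.76 and Pim1 at 0.57 mark the ends, and the triangles lie right of the circles except for Socs2 and Pim2.

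Whether relatives moved apart was tested by the log2 ratio of both genes within each library, a value that needs no scaling between libraries apart from the added 0.5 CPM. There were 5 pairs, with two-sided exact permutation tests over libraries and p adjusted over the 5. The ratio of Socs2 to Cish averaged -0.32 ± 0.221 in sh-Il22ra1 and 0.38 ± 0.188 in sh-ctrl (SD, n = 6 each), a difference of -0.71 (exact permutation p = 0.00216, adjusted p = 0.0108). The groups did not overlap: Cish had more reads than Socs2 in every sh-Il22ra1 library and fewer in every sh-ctrl library. The ratio of Pim1 to Pim3 averaged -0.42 ± 0.160 in sh-Il22ra1 and -0.80 ± 0.163 in sh-ctrl, a difference of 0.38 (exact permutation p = 0.00649, adjusted p = 0.0135). The groups of this pair overlapped, with ratios of -0.70 to -0.20 in sh-Il22ra1 and -0.96 to -0.56 in sh-ctrl. The ratio of Socs1 to Socs3 differed by 0.51 (exact permutation p = 0.00866, adjusted p = 0.0135), although Socs1 alone did not pass, and that of Socs6 to Socs7 by -0.25 (exact permutation p = 0.0108, adjusted p = 0.0135). The last ended without sh-ctrl replicates 1 and 4 (difference -0.20, exact permutation adjusted p = 0.0595). For Socs4 to Socs5 the difference was -0.09 (exact permutation p = 0.617). Pairs of other genes were not put through this test. As 51.9% of tested genes were called, in both directions, the differences are no result about relatives as such.

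**Figure D3:**
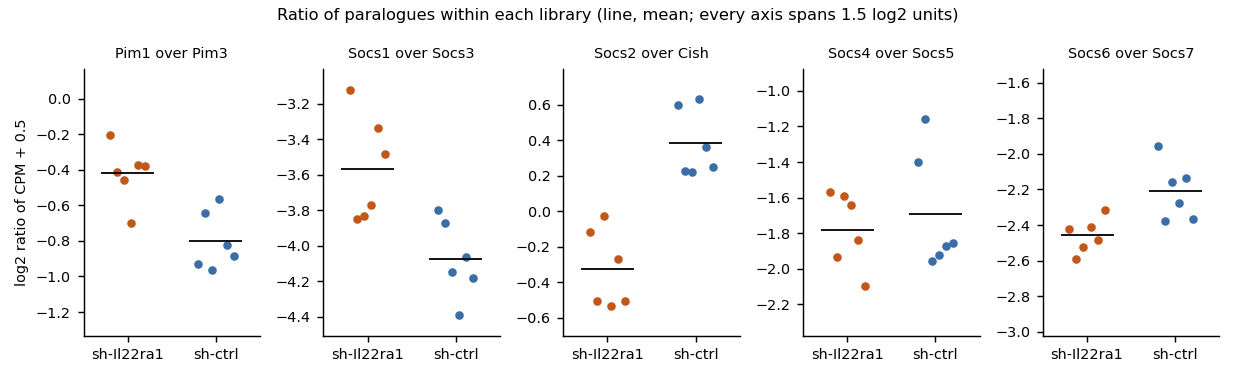
Log2 ratio of CPM + 0.5 between the genes of each of 5 pairs in every library, sh-Il22ra1 (orange, left) and sh-ctrl (blue, right), with the mean as a line. The groups lie apart for Socs2 over Cish, at means of -0.32 and 0.38, and overlap for Socs4 over Socs5, where sh-ctrl reaches higher.

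Per transcript length, in CPM per kb of the longest coding transcript, the PIM kinases and a few SOCS genes lead. In sh-Il22ra1 the order was Pim3 (24.9 ± 1.77), Pim1 (16.7 ± 1.40), Socs7 (14.4 ± 1.20), Socs3 (13.3 ± 0.674), Socs5 (5.64 ± 0.425), Socs2 (4.17 ± 0.349), Cish (4.13 ± 0.416), Socs6 (2.96 ± 0.195), Socs4 (1.06 ± 0.125) and Socs1 (0.845 ± 0.203; SD, n = 6). In sh-ctrl it was Pim3 (22 ± 1.78), Socs3 (15.7 ± 0.889), Pim1 (11.3 ± 0.626), Socs7 (10.5 ± 1.33), Socs2 (7.10 ± 0.725), Socs5 (5.24 ± 0.921), Cish (4.21 ± 0.509), Socs6 (2.57 ± 0.217), Socs4 (1.05 ± 0.247) and Socs1 (0.669 ± 0.158; SD, n = 6). Neighbours whose ranges over libraries overlapped were Pim1 and Socs7, Socs7 and Socs3, Socs2 and Cish, and Socs4 and Socs1 in sh-Il22ra1, and Pim1 and Socs7, Socs2 and Socs5, Socs5 and Cish, and Socs4 and Socs1 in sh-ctrl. Socs3 thus stood above Pim1 and Socs7 in sh-ctrl and below Pim1 in sh-Il22ra1. Averaged over both groups, Pim3 was above 73.2% of tested genes in level per kb and Socs1 above 10.8%.

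**Figure D4:**
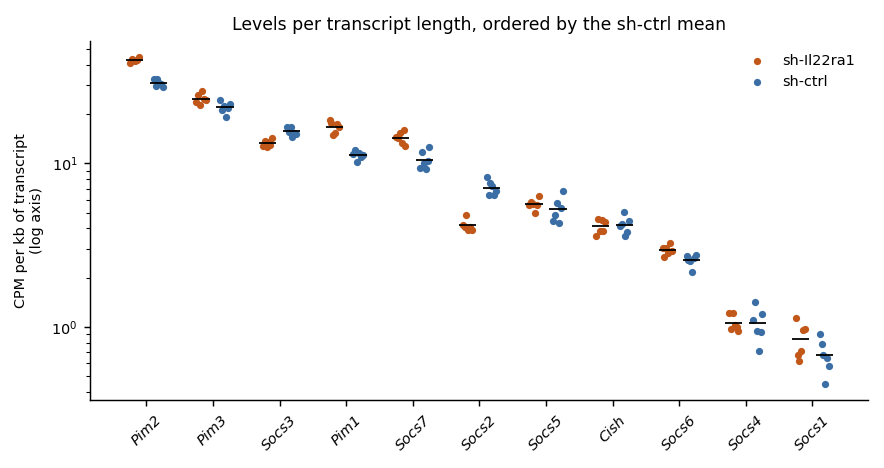
CPM per kb of transcript in each library on a log axis, sh-Il22ra1 (orange, left) beside sh-ctrl (blue, right), for the members and Pim2 in the order of the sh-ctrl means. Levels run from Pim2 and Pim3 down to Socs1, and Socs2 at 4.17 CPM per kb in sh-Il22ra1 lies by Cish at 4.13.

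The mRNAs differ in features that the choice of members did not use. AU-rich pentamers in the 3′ untranslated region are known marks of short-lived mRNAs, and ATTTA, counted on the sense strand of the reference transcript, was present in 9 of the 10 members, against 69.7% of 12403 tested genes with such a region of at least 50 bases. A longer region has more places for a match, and the members' regions ran from 964 to 5184 bases. Lengths were not matched, so these shares show no excess. By density Socs2 (1.72 per kb, reached by 40.3% of tested genes) and Socs5 (1.54 per kb, reached by 44.3%) were near the middle. Pim3 held 5 in 964 bases, or 5.19 per kb, a density that 5.67% of tested genes reached, and Pim1 held 5 in 1365 bases (3.66 per kb, reached by 12.7%). Socs3 held 4, Cish 3 and Socs2 2, while Socs1 held 0 in 1993 bases. Socs7 had 0.965 per kb, under the median of 1.28. Reference transcripts ran from 2222 bases (Socs2) to 7015 bases (Socs7), and their GC content from 38.5% (Socs4) to 61.9% (Pim3). The length and GC correction raised the values of all members except Socs2, and it raised the median of all tested genes to 0.04.

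As a description of likeness, the deviations from the group means of log2 CPM were correlated over the 12 libraries, which share their depth and scaling. The 3 highest of many genes are given per member. The r that chance alone gives was not computed, so they do not show shared regulation. Some are scarce, such as Pygl (0.816 CPM in sh-Il22ra1 and 1.22 CPM in sh-ctrl) and Rgs9bp (0.631 CPM in sh-Il22ra1 and 0.962 CPM in sh-ctrl). For Pim1 the genes with the highest Pearson r were Artn (0.93), Cd34 (0.89) and Ppic (0.87). For Socs2 they were Pygl (0.88), Paqr9 (0.87) and Abhd10 (0.86), and for Socs3 Fam57b (0.87), Col28a1 (0.87) and Gpn3 (0.85). Socs7 was most like Greb1l (0.95), Bcl9l (0.94) and Kat6a (0.93), and Cish like Zyx (0.96), Chac1 (0.94) and Fiz1 (0.91). For Pim3 the genes were Begain (0.93), Rgs9bp (0.88) and Orai3 (0.87), and for Socs6 Zc3h7a, Supt20 and Gpr137b-ps (0.93 to 0.92). For Socs4 they were Eml5, Camsap2 and Mga (all 0.94), for Socs5 Insrr (0.96), Hic2 (0.95) and Pde6a (0.90), and for Socs1 Capn7 (0.90), Mid2 (0.89) and Ftx (0.86). Between members the highest r was that of Socs3 and Cish (0.78).

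The receptors and kinases upstream of the members moved unevenly. Of 25 genes for cytokine receptor chains, 14 were tested, of which 2 rose, 6 fell and 6 did not pass, at a median log2 fold change of -0.14 against -0.0043 for all tested genes. The shares over all tested genes were 25.4% higher and 26.5% lower. Cntfr, the receptor chain for ciliary neurotrophic factor, fell to 54.9 CPM ± 2.09 in sh-Il22ra1, against 168 CPM ± 13.3 in sh-ctrl (SD, n = 6 each; log2 fold change -1.61). Il20rb fell (-0.82) and Ifngr2, the signalling chain of the interferon-gamma receptor, rose (0.80), with adjusted p of at most 1.04e-07 for the 3 by edgeR. Il10rb, the partner of Il22ra1, was at 23.6 CPM ± 2.11 in sh-Il22ra1 and 23.3 CPM ± 2.24 in sh-ctrl (SD, n = 6 each) and did not pass. Of 10 tested JAK and STAT genes, 1 rose, 2 fell and 7 did not pass. Jak3 rose (0.53), Jak2 (-0.46) and Jak1 (-0.24) fell, and Tyk2 (0.02), Stat3 (-0.07), Stat5a (0.21) and Stat5b (0.18) were among those that did not pass. Stat3 passed without sh-ctrl replicates 1 and 4 (-0.21, edgeR adjusted p = 0.00580) and was at 0.12 with the length and GC correction, which did not pass. With that correction Tyk2 (0.24), Stat5a (0.34) and Stat5b (0.34) passed, with edgeR adjusted p of at most 0.00637, and Jak1 was at -0.15. Calls rose over all genes as well. The correction called 4376 of 13036 genes higher and 3273 lower. Leaving out sh-ctrl replicates 1 and 4 gave 3781 of 13255 higher and 4146 lower, and the main fit 3323 of 13102 higher and 3472 lower. Stat5b also passed without sh-ctrl replicate 2 or 6, and Stat5a without sh-ctrl replicate 6.

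Genes of growth hormone and prolactin signalling, the setting in which Socs2 and Cish are best known in beta cells, were lower in 7 of 13 tested cases, higher in 2 and not past the threshold in 4, with a median log2 fold change of -0.33. Prlr, the prolactin receptor, fell to 4.60 CPM ± 0.725 in sh-Il22ra1, against 13.7 CPM ± 3.06 in sh-ctrl (SD, n = 6 each; log2 fold change -1.58, SE 0.155). Ghr, the growth hormone receptor, fell to 33.7 CPM ± 1.41 in sh-Il22ra1, against 58.9 CPM ± 3.42 in sh-ctrl (SD, n = 6 each; -0.80, SE 0.0601). Ccnd2, the cyclin that prolactin raises in beta cells, fell too (-1.26, SE 0.0784). Adjusted p was at most 1.35e-07 for the 3 by edgeR, and their groups did not overlap. Socs2 and these 3 genes were all lower and Cish was not called, while Bcl6 (0.70) and Cdkn1b (0.25) of the list were higher. Of all tested genes 26.5% were called lower, and a link between these changes was not tested.

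Among 15 tested genes of other brakes on JAK-STAT signalling, 3 rose, 5 fell and 7 did not pass. Pias4, a SUMO ligase that represses STATs, rose (0.82, SE 0.0569) and Usp18, a brake on the interferon receptor, rose (0.44, SE 0.0516), while the phosphatase gene Dusp22 fell (-0.31, SE 0.0797). Of 25 genes of the SOCS box ubiquitin ligase and of other SOCS box proteins, 12 rose, 4 fell and 9 did not pass, at a median log2 fold change of 0.21. Beside the counts of both lists, 25.4% of all tested genes were called higher and 26.5% lower, and neither list was tested as a set. In the core of the ligase, Elob, one of the elongins that hold the SOCS box, rose (0.25, SE 0.0994, adjusted p = 0.0395, edgeR), Eloc (0.21) and the scaffold Cul5 (-0.13) did not pass, and the RING protein gene Rnf7 fell (-0.22, SE 0.0622). The Elob call ended under 8 of 23 alternatives, among them leaving out sh-ctrl replicate 2, 3, 5 or 6 or sh-Il22ra1 replicate 2, 4 or 6. Without sh-ctrl replicates 1 and 4, Elob was at 0.42 and Eloc at 0.37, and both passed (edgeR adjusted p of at most 3.43e-05). Eloc also passed without either one of them and with the length and GC correction (0.18), where Rnf7 was at -0.36. Other SOCS box genes had larger values, with Asb3 at 0.66, Rab40c at 0.63 and Spsb3 at 0.52.

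Targets on which the members act or which share their regulators split as well. Of 18 tested SOCS substrates and partners, 3 rose, 5 fell and 10 did not pass. Igf1r (-0.66), Irs1 (-0.47) and Trim8 (-0.30) fell, Pik3r2 rose (0.37), and Irs2 was at 47.6 CPM ± 3.95 in sh-Il22ra1 and 62.7 CPM ± 23.3 in sh-ctrl (SD, n = 6 each; -0.40, adjusted p = 0.0677, edgeR). Irs2 passed without sh-ctrl replicate 1 (-0.53), without replicate 4 (-0.51) and without both (-0.68, adjusted p = 2.62e-07, edgeR), was at -0.27 without replicate 6, and at -0.11 with the length and GC correction. That correction also gave -0.41 for Igf1r, -0.23 for Irs1 and -0.11 for Trim8, all still called. Of 18 tested STAT3 target genes outside the members, 8 rose, 8 fell and 2 did not pass, with Saa3 (1.80), Junb (0.73) and Icam1 (0.72) the called ones of smallest p. Of 25 tested PIM substrates and cofactors, 8 rose, 5 fell and 12 did not pass. Eif4b, a translation factor that PIM kinases phosphorylate, fell (-1.12, SE 0.0633), as did Mapt (-0.94, SE 0.0518), and Cdkn1a, the cell cycle inhibitor whose protein PIM1 phosphorylates, rose (0.56, SE 0.0556). None of these lists is called distinct from other genes, of which the test called 51.9%. No list was tested as a set, and the lists were chosen with earlier results of these data known.

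**Figure D5:**
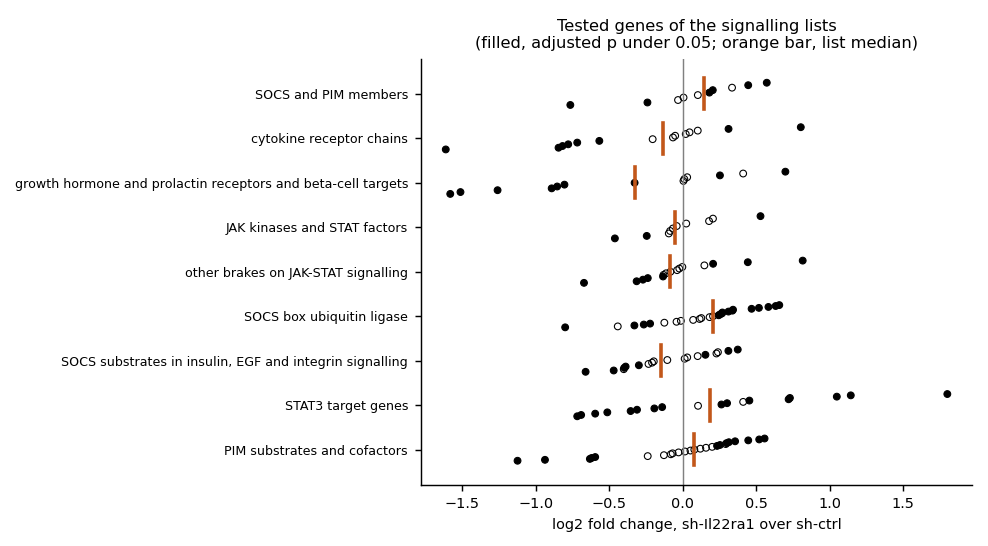
Log2 fold change (sh-Il22ra1 over sh-ctrl) of every tested gene of the members and of 8 signalling lists, filled where adjusted p was under 0.05 by edgeR, with the list median as an orange bar. Medians run from -0.33 for growth hormone and prolactin genes to 0.21 for the SOCS box ligase list, and each list holds values on both sides of 0.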

How the data were processed

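Total RNA of 12 Min6 samples was sequenced in paired ends after TRIzol extraction and a Vazyme VAHTS kit, per the labels' protocols. The submitters' processing notes list HISAT2 2.0.5, HTSeq and mm10; the strand setting and the annotation are not given here. The deposited sample files hold whole-number counts for 24421 symbols and 5 rows of unassigned reads, which were left out and took 23.5% to 31.7% of reads. The deposited series table holds CPM with these rows included; multiplied by the column totals it gave whole reads (tolerance 0.001) for 100% of values, and the count test on these reads called 3323 genes higher and 3472 lower, as many as the counts.

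Counts were tested in R 4.3.3 with edgeR 4.0.16 (filterByExpr with minimum count 10, TMM, two-sided quasi-likelihood test, Benjamini-Hochberg over 13102 genes, threshold 0.05). The code was checked on simulated counts with 200 changed genes and a biological coefficient of variation of 0.1 for every gene. Far fewer genes changed there than were called here, so the check does not cover changes this widespread. Intervals of log2 fold changes are 95% with 10 degrees of freedom. Lengths and GC content are from GENCODE M21 (GRCm38); Elob and Eloc were counted as Tceb2 and Tceb1. Named genes were the members, Il22ra1, Pim2 and 16 fixed genes, up to 3 called genes per list with the smallest p, and 3 genes of highest likeness per member; 1 of the fixed genes is not reported here. Members and lists were chosen with earlier results of these data known. Alternatives numbered 23; DESeq2 was 1.42.0, limma 3.58.1, Python 3.11.15 and scipy 1.17.1. Numbers of replicates do not pair the samples: deviations of same-numbered libraries correlated at -0.0328 to 0.229. No within-group pair of libraries agreed within sampling noise (lowest chi-square 3.96 per degree of freedom).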

Additional observations from a re-analysis of the deposited data

Results flagged for a closer look

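A single library lay far from the other 5 of its group in 5 of the 96 groups examined; chance gives about 1 in 20. Socs2 in sh-Il22ra1 was highest in replicate 3, at 10.8 CPM with the next at 9.38 CPM, a gap of 0.650 of the range. Socs6 in sh-ctrl was lowest in replicate 4, at 13.1 CPM with the next at 15.3 CPM (0.628 of the range). Stat3 in sh-Il22ra1 was highest in replicate 3, at 191 CPM with the next at 165 CPM (0.664). Ifngr2 in sh-Il22ra1 was highest in replicate 5, at 97.7 CPM with the next at 90.0 CPM (0.636). Ccnd2 in sh-Il22ra1 was lowest in replicate 6, at 119 CPM with the next at 130.3 CPM (0.642).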

How the results depend on the processing

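Pim1, Socs7, Socs2 and Socs3 kept direction and call under all 23 alternatives, with log2 fold changes of 0.54 to 0.62, 0.35 to 0.68, -0.84 to -0.72 and -0.27 to -0.15. Socs1, Cish and Socs4 were called under none of them, and Socs5 only with the length and GC correction. When 1 library was left out, members called higher numbered 2 to 4 and members called lower 2; the count was 2 without sh-ctrl replicate 2, 4 or 5 or sh-Il22ra1 replicate 5 or 6, where Socs6 and Pim3 both lost their calls. Over all genes, leaving out 1 library gave 2881 to 3521 higher and 3239 to 3970 lower. The length and GC correction gave 4376 higher and 3273 lower, and leaving out sh-ctrl replicates 1 and 4 together gave 3781 higher and 4146 lower. By edgeR, the log2 fold change of Socs6 also missed the threshold without a low-count filter (adjusted p = 0.0676), with a minimum mean of 1 CPM (0.0567) and with scaling without Ins2, Iapp and Rn45s (0.0562).

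With the replicate number as a block, 3463 genes were higher and 3566 lower, the log2 fold change of Pim3 was 0.18 at adjusted p = 0.0549 (edgeR), and Eloc passed (0.22); of the sh-Il22ra1 libraries, replicates 1 and 4 correlated best with their own number. Paired by number with a replicate block, the pair differences were 0.38 (Pim1 and Pim3), 0.51 (Socs1 and Socs3), -0.71 (Socs2 and Cish) and -0.25 (Socs6 and Socs7). Each was at adjusted p = 0.0781 by exact sign flips. With 6 replicate numbers the flips allow no p under 0.0312 before adjustment, and this floor alone does not give 0.0781. Socs6 and Socs7 gave -0.20 without sh-ctrl replicates 1 and 4 together. Leaving out 1 library gave 0.34 to 0.44, 0.42 to 0.57, -0.77 to -0.66 and -0.28 to -0.20 for these 4 pairs and -0.14 to 0.02 for Socs4 and Socs5. The ratio for Il22ra1 was 0.175 to 0.221. Socs1 and Socs4, with the fewest reads, had the widest intervals; in sh-ctrl their CVs were 23.6% and 23.4%, where counting alone gives 18.8% and 9.68%.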

Other observations

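Summed per transcript length, the 8 SOCS genes gave 46.5 CPM per kb ± 0.999 in sh-Il22ra1 and 47.1 CPM per kb ± 2.88 in sh-ctrl (SD, n = 6 each), while their makeup differed. Socs3 made up 28.7% ± 1.72 of this sum in sh-Il22ra1 and 33.4% ± 1.73 in sh-ctrl, and Socs2 8.98% ± 0.677 and 15.1% ± 1.75. Socs7 made up 30.9% ± 2.17 in sh-Il22ra1 and 22.3% ± 2.22 in sh-ctrl, so that by the mean Socs7 led in sh-Il22ra1 and Socs3 in sh-ctrl; in sh-Il22ra1 replicates 4 and 6 Socs3 was above Socs7. The 3 PIM genes summed to 84.6 CPM per kb ± 2.44 in sh-Il22ra1 and 64.3 CPM per kb ± 2.37 in sh-ctrl, and Pim2 made up 50.8% ± 1.5 in sh-Il22ra1 and 48.3% ± 1.69 in sh-ctrl of it. These sums are descriptions with no test.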
